A study of Mus musculus with 29 samples.

Results

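A set of 8 secreted antagonists and modulators of bone morphogenetic proteins (BMPs) were followed across RNA-seq libraries of the mouse embryo at E9.0: Grem1, Nbl1, Nog, Chrd, Fst, Bmp3, Bmper and Twsg1. They were taken as a list of symbols out of the 23337 genes in the count tables. All 8 were in the tables, and all 8 passed the filter on low counts in each fit.

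BMPs are secreted ligands that act through serine/threonine kinase receptors and Smad transcription factors. In the trunk they come from the lateral plate and from dorsal tissues, and secreted antagonists hold them off the somites by binding them outside the cell. Low BMP activity together with Hedgehog signals from notochord and floor plate is known to favour sclerotome, the ventral somite tissue that gives rise to the vertebral column. Grem1 and Nbl1 code for cystine-knot antagonists of the DAN family. Nog and Chrd code for noggin and chordin, classical BMP traps, and Fst for follistatin, which binds activins and some BMPs. Bmp3 is a divergent BMP that opposes other family members. Bmper and Twsg1 code for extracellular partners of BMPs and chordin that can lower or raise signalling.

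The 29 libraries form 8 groups, and all come from C57BL/6 embryos with the Dll1-YFP lineage mark. CTRL and DIR, with 4 libraries each, hold Dll1-lineage cells from presomitic mesoderm explants that were cultured alone (CTRL) or with LDN and SAG (DIR). LDN blocks type I BMP receptors and SAG activates Smoothened, the membrane transducer of Hedgehog signals. Neither dose nor length of culture is given in the labels. The SOM groups are Dll1-lineage cells collected for YFP without culture, with 3 libraries of SOMA and 4 of each of SOMB, SOMC and SOMD. SOMA is presomitic mesoderm with the newest somite, SOMB spans somites 2 to 5, SOMC 6 to 9, and SOMD starts at somite 10, with a last somite that differs between the labels of its libraries. MUT and WT (n = 3 each) are unsorted trunk tissue, and the labels name no mutated gene. AI646519, the symbol of the PEAT long non-coding RNA in the series title, had 0 counts in the 3 MUT libraries and 0.538 to 1.63 CPM in WT. A count of 0 allows up to 3 counts per library, from counting error alone.

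Gene counts per library ran from 11541131 to 44363411. Levels are CPM, counts scaled to library size by TMM over all libraries, differences are log2 fold changes ± SE from edgeR, and a difference is called when the Benjamini-Hochberg adjusted p over all genes tested is under 0.05. Whether replicates came from different embryos or cultures is not in the labels; p-values therefore measure only the spread between these libraries, which may be technical. SOMC1 and SOMC4 were nearly alike, and so were SOMD1 and SOMD4. Their counts gave a chi-square per degree of freedom of 1.95 and 1.91, against 9.24 or more in every other pair within a group; they differed beyond sampling noise and were kept apart, and summed as an alternative. These 4 libraries, with SOMA1 and SOMB1, also had the highest shares of reads in no feature among the SOM libraries. Among the cultured libraries CTRL1, DIR1 and DIR2 stood apart by their higher share of multi-mapped reads, those HTSeq lists as not uniquely aligned. This share was 38.8 to 40.6% in the trunk libraries and at most 25.4% in all others. Values given side by side for libraries of high and low share are log2 ratios of mean CPM, not edgeR values, and were not tested. On the high side, CTRL1, SOMA1 and SOMB1 are each the only library of their group. The summed level of 7 presomitic genes was 508 to 703 CPM in SOMA and at most 65.4 in SOMB to SOMD. It was 179 to 388 CPM in CTRL and 238 to 635 in DIR. In all groups 7 somite genes summed to 299 to 743 CPM. That sum did not separate SOMA (481.7 to 606.4 CPM) from SOMD (421.3 to 610.8). The sorted SOM cells also carried 6 endothelial genes at a sum of 52.0 to 241 CPM. This endothelial sum was 226 to 290 CPM in CTRL, 193 to 317.5 in DIR, 287 to 358 in MUT and 310 to 325 in WT. Fewer cells of a type and less RNA per cell cannot be told apart in such bulk libraries.

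**Figure D1:**
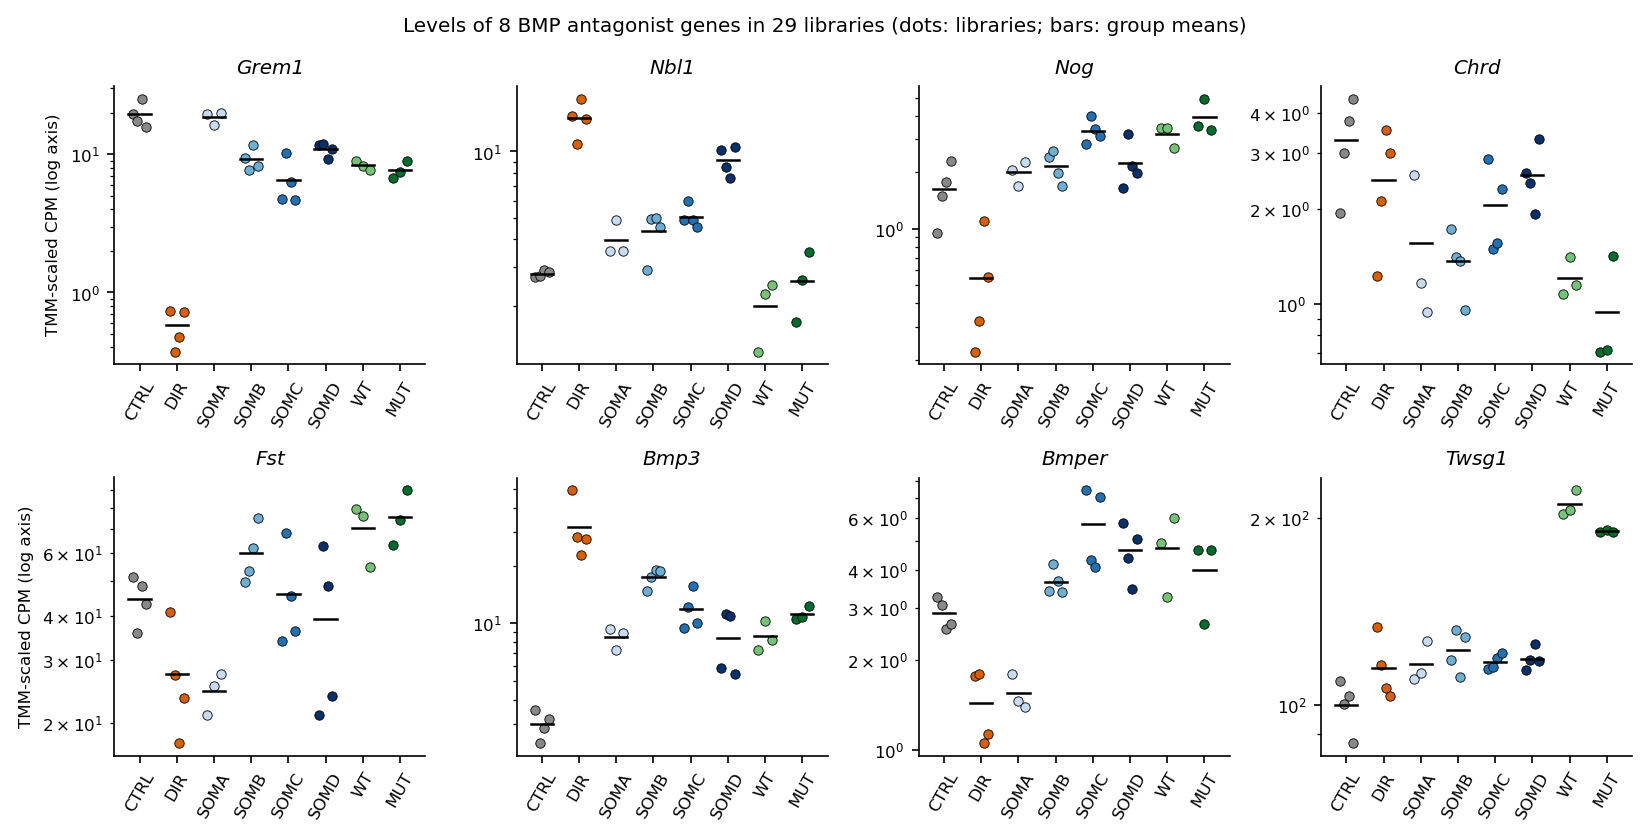
Level of each gene in every library, in TMM-scaled CPM on log axes whose ranges differ between panels; dots are libraries and bars are group means. Grem1 is below 1 CPM in all DIR libraries alone, Nbl1 and Bmp3 are highest in DIR, and Twsg1 is highest in WT and MUT.

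The comparison of DIR with CTRL asks what happens to the antagonists when presomitic mesoderm is cultured with LDN and SAG. LDN and SAG were given only together, so the part of each cannot be told apart. Of the 8 genes, Nbl1 and Bmp3 rose, Grem1 fell, and 5 did not pass the test (edgeR). Among all 14190 genes tested, 0.303% rose and 0.444% fell. The median log2 fold change was −0.57 over the 8 genes and −0.01 over all genes.

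Grem1, on chromosome 2 (mm10, 113746164 to 113758646, minus strand), had 19.7, 17.3, 25.3 and 15.65 CPM in CTRL1 to CTRL4. In DIR1 to DIR4 it had 0.736, 0.373, 0.479 and 0.721 CPM, which rest on 76 counts in all. Every DIR library was far below every CTRL library. The decrease was −5.07 ± 0.28, or 33.5-fold, with the lowest p of all 14190 genes (edgeR adjusted p = 1.29e-04). It was −5.15 among the 3 libraries with a high multi-mapped share and −5.02 among the other 5.

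Nbl1, on chromosome 4 (mm10, 139082284 to 139092993, minus strand), belongs to the same protein family and moved the other way. It had 2.70, 2.75, 2.90 and 2.86 CPM in CTRL1 to CTRL4 and 14.5, 10.8, 17.3 and 14.0 CPM in DIR1 to DIR4. The CTRL libraries were nearly level and the DIR libraries were all higher. The increase was 2.33 ± 0.18, or 5.03-fold (edgeR adjusted p = 6.46e-04), and 2.23 and 2.47 in the libraries of high and low share.

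Since this pair of DAN-family genes responded in opposite directions, the 250 bases before their RefSeq starts are given here on GRCm38.p6. For Nbl1 that start lies inside the GENCODE span given above, so the end of its stretch overlaps the gene as GENCODE draws it. A RefSeq promoter was matched for 5 of the 8 genes, and not for Nog, Bmp3 and Fst. The stretches lie at chr2:113758649-113758898 and chr4:139092971-139093220, both on the minus strand, and are written 5′ to 3′ along the gene. Capitals mark matches to the motifs searched, on both strands: GGCGCC (a GC-rich Smad motif), CAGAC (the Smad box), CCACCCA (the core of the Gli motif) and TCACACC (the core of the T-box motif).
Grem1: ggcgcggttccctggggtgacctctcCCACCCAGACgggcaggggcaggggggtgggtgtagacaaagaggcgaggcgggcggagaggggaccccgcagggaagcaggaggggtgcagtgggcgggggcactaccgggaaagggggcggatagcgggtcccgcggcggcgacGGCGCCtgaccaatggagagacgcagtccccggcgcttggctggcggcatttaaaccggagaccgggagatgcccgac
Nbl1: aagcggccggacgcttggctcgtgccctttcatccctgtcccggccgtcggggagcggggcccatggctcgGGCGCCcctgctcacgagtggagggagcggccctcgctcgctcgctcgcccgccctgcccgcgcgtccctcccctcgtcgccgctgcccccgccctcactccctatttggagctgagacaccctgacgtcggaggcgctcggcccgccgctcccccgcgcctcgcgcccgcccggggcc
The Grem1 stretch holds GGCGCC from −78, CCACCCA from −224 and CAGAC from −219, counted from the start; the last 2 matches overlap by 2 bases. The Nbl1 stretch holds GGCGCC from −179 and none of the other 3 motifs. Of 32851 RefSeq promoters of this length, 9.59% hold GGCGCC, 42.19% CAGAC, 8.11% CCACCCA and 3.33% TCACACC. Both stretches are rich in G and C, with 72.0% in Grem1 and 77.6% in Nbl1 against a median of 52.4%. Chrd holds GGCGCC from −203, Twsg1 holds CAGAC from −104 and −99, and Bmper holds none of the 4. A match is a description of letters and not a binding site.

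Bmp3, on chromosome 5 (mm10, 98854415 to 98884396, plus strand), had 3.55, 2.37, 2.85 and 3.17 CPM in CTRL1 to CTRL4. It had 49.5, 28.2, 22.7 and 27.4 CPM in DIR1 to DIR4, where DIR1 was the highest library. All DIR libraries were above all CTRL libraries. The increase was 3.41 ± 0.27, or 10.6-fold (edgeR adjusted p = 6.46e-04), with 3.45 and 3.16 in the libraries of high and low share. Grem1, Nbl1 and Bmp3 were called in the same direction under all 16 alternatives, which include leaving out each library in turn.

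Of the classical traps, Nog had 0.954, 1.49, 1.78 and 2.30 CPM in CTRL1 to CTRL4 and 0.221, 0.323, 1.101 and 0.550 CPM in DIR1 to DIR4. DIR3 was above CTRL1, so the groups overlap. The difference of −1.64 ± 0.49 did not pass (edgeR adjusted p = 0.197), while DESeq2 (adjusted p = 0.0387) and an edgeR fit of all 29 libraries (adjusted p = 0.00441) called it. Chrd ran from 1.94 to 4.44 CPM in CTRL and from 1.23 to 3.54 in DIR, a difference of −0.43 ± 0.36 (edgeR adjusted p = 0.588). In both groups the lowest Chrd library was replicate 1.

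Fst had 51.3, 35.8, 48.4 and 43.2 CPM in CTRL1 to CTRL4 and 41.1, 27.3, 17.6 and 23.5 CPM in DIR1 to DIR4. DIR1 lay within the CTRL range and the other DIR libraries below it. The difference was −0.71 ± 0.24 (edgeR adjusted p = 0.231); with the multi-mapped share as a term edgeR called it at −1.01 (adjusted p = 0.0313), and over the 5 libraries of low share at −1.03 (edgeR adjusted p = 0.0144).

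Of the modulators, Bmper had 3.26, 3.06, 2.54 and 2.64 CPM in CTRL1 to CTRL4 and 1.77, 1.79, 1.05 and 1.13 CPM in DIR1 to DIR4. The groups do not overlap, but the difference of −0.998 ± 0.24 did not pass (edgeR adjusted p = 0.113). DESeq2 called it (adjusted p = 0.0101), as did edgeR over all 29 libraries (adjusted p = 0.0150) and with the share as a term (adjusted p = 0.0306). Twsg1 ran from 87.0 to 109 CPM in CTRL and from 103.5 to 134 in DIR, a difference of 0.19 ± 0.12 with a 95% interval of −0.07 to 0.45 (edgeR adjusted p = 0.447).

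**Figure D2:**
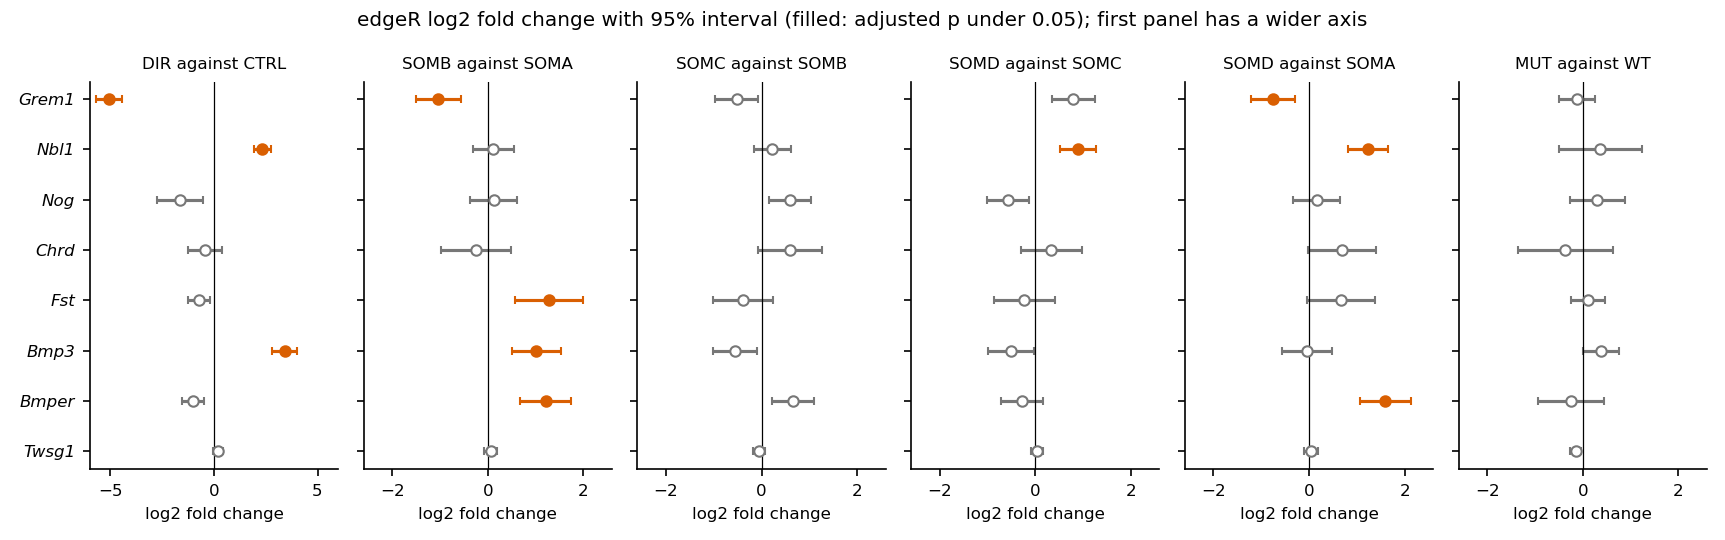
Log2 fold change of the 8 genes in the 6 comparisons from edgeR, with 95% intervals and a wider axis in the DIR panel; filled points passed an adjusted p of 0.05. Grem1, Nbl1 and Bmp3 lie farthest from 0 in DIR against CTRL, and no point is filled in SOMC against SOMB or MUT against WT.

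The rest of the pathway was read from lists of its parts. Of 5 tested BMP ligands 1 rose, Bmp7 (1.02 ± 0.17, edgeR adjusted p = 0.0269), and none of 9 tested receptors and co-receptors passed. Among Smads of the BMP branch 1 of 4 fell, Smad9 (−3.63 ± 0.30, edgeR adjusted p = 9.61e-04). Of 5 inhibitors that act inside the cell or at its membrane 2 fell, Smad7 and the pseudoreceptor Bambi (−1.38 ± 0.16 and −1.11 ± 0.13). Of 6 BMP targets 2 fell, Id2 and Msx2 (−3.15 ± 0.23 and −2.27 ± 0.21). The others were also lower without passing. They were Id3 (−3.57 ± 0.70), Msx1 (−3.20 ± 1.45), Id1 (−1.80 ± 0.58) and Id4 (−0.87 ± 0.25), with edgeR adjusted p = 0.0606, 0.332, 0.217 and 0.177. None of 9 tested other secreted antagonists, 3 chordin proteases, 1 activin-type ligand or 4 Hedgehog targets passed. Gli1, a readout of SAG, differed by −0.06 (edgeR adjusted p = 0.911), while the Hedgehog targets Ptch1 and Hhip differed by 0.49 ± 0.15 and 1.11 ± 0.38 (edgeR adjusted p = 0.191 and 0.236).

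Markers of neighbouring tissues moved in the same comparison. The sum over 6 lateral plate and heart genes was 130 to 228 CPM in CTRL and 43.2 to 69.3 in DIR, with all 5 tested members lower; Nkx2-5, the member not tested, had 1 count over the 4 CTRL libraries and 0 in DIR. The sum over 5 intermediate mesoderm genes was 58.1 to 90.7 CPM in CTRL and 22.1 to 46.7 in DIR, with 1 member lower. Of 6 neural tube genes 1 rose, with sums of 18.5 to 24.2 CPM in CTRL and 28.6 to 43.7 in DIR, and of 7 somite genes 1 rose, with sums of 315.5 to 492 and 299 to 582 CPM. Their part in the changes of Grem1, Nbl1 and Bmp3 was not tested.

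Along the trunk, 4 of the 8 genes differed among SOMA, SOMB, SOMC and SOMD: Bmper, Nbl1, Grem1 and Bmp3 (edgeR adjusted p = 2.92e-04, 2.98e-04, 5.55e-04 and 0.00603). Of all 13790 genes tested, 19.8% passed this test. Fst (edgeR adjusted p = 0.0580), Nog (0.0656), Chrd (0.157) and Twsg1 (0.831) did not. With the replicate number as a block over all SOM libraries, Fst (edgeR adjusted p = 0.0252) and Nog (0.0452) passed as well. In the 9 libraries with a low share of reads in no feature, Grem1 (edgeR adjusted p = 0.0763) and Nbl1 (0.0858) no longer passed.

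**Figure D3:**
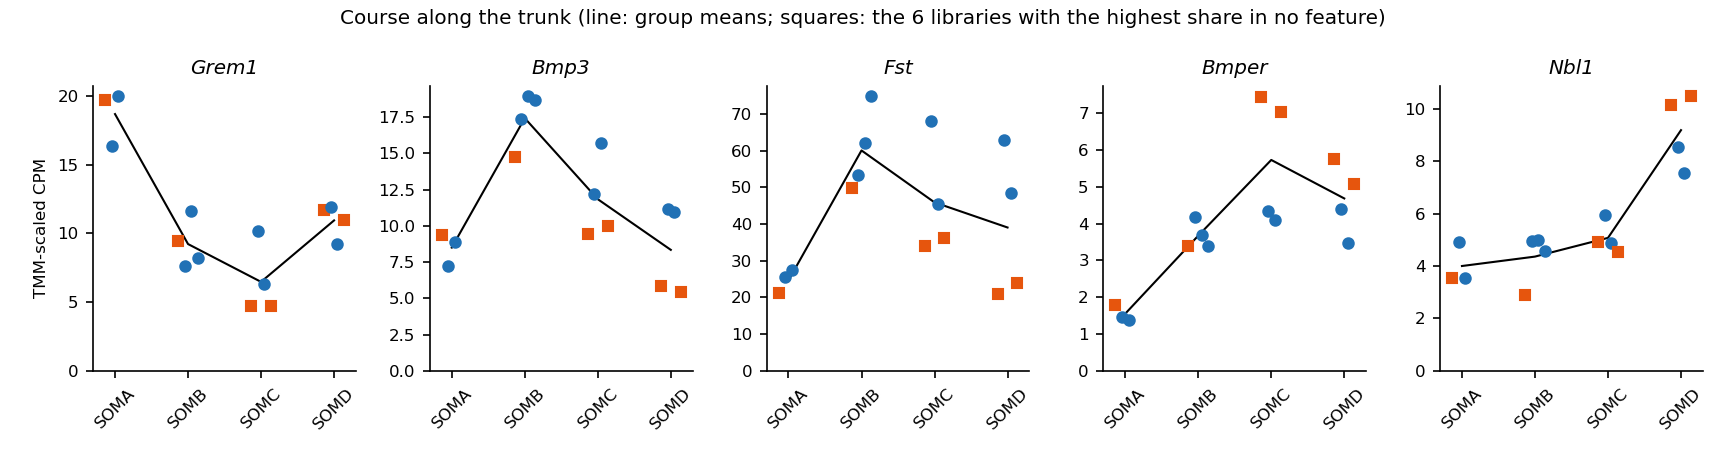
TMM-scaled CPM of 5 genes in the SOM libraries, on linear axes from 0; the line joins group means and squares are the 6 libraries with the highest share of reads in no feature. Grem1 is highest in SOMA, Bmp3 in SOMB, Bmper lowest in SOMA, and Nbl1 highest in SOMD; the squares of Fst are the lowest libraries of each group.

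The step from SOMA to SOMB goes from presomitic mesoderm with the newest somite to older somites. SOMA thus already includes somite tissue. The sum of the 7 somite genes was 481.7 to 606.4 CPM in SOMA and 591.6 to 742.5 in SOMB, with overlap. A smaller share of presomitic cells and a change within somites cannot be told apart at this step. Bmper, Bmp3 and Fst rose and Grem1 fell, while Nog, Chrd, Nbl1 and Twsg1 did not pass (edgeR). Of all genes tested, 4.13% rose and 4.55% fell at this step. Same-numbered libraries deviated together here, and a fit of SOMA and SOMB alone with the replicate number as a block, which drops SOMB2, had 1251 higher and 1162 lower genes, with the same 4 calls among the 8. Without the block, the fit of these groups alone, SOMB2 included, had 337 and 460. The median log2 fold change was 0.12 over the 8 genes and 0.01 over all genes. The presomitic marker list fell in all 7 of its members, and 4 of 7 somite, 3 of 6 neural tube and 1 of 5 intermediate mesoderm genes rose, while 1 of 3 tested notochord genes fell; their part in the result was not tested.

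Grem1 had 19.7, 16.4 and 19.97 CPM in SOMA1, SOMA3 and SOMA4 and 9.43, 7.65, 11.6 and 8.19 CPM in SOMB1 to SOMB4. All SOMB libraries were lower, by −1.03 ± 0.22 (edgeR adjusted p = 0.00618). Over the 9 libraries of low no-feature share the value was −1.001 (edgeR adjusted p = 0.0507).

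Bmper had 1.80, 1.46 and 1.39 CPM in SOMA1, SOMA3 and SOMA4 and 3.40, 4.19, 3.70 and 3.39 CPM in SOMB1 to SOMB4. The groups do not overlap and the increase was 1.21 ± 0.25 (edgeR adjusted p = 0.00532), called under all 17 alternatives. Bmp3 had 9.35, 7.24 and 8.91 CPM in SOMA and 14.7, 17.3, 19.0 and 18.7 CPM in SOMB, again without overlap. Its increase was 1.02 ± 0.24 (edgeR adjusted p = 0.0129), and without SOMA3 it was 0.93 (edgeR adjusted p = 0.0691).

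Fst had 21.1, 25.4 and 27.4 CPM in SOMA and 49.8, 53.4, 62.1 and 74.9 CPM in SOMB. Every SOMB library was higher, by 1.28 ± 0.33 (edgeR adjusted p = 0.0233). The call was lost without SOMA1, SOMA3, SOMA4 or SOMB4 (edgeR adjusted p = 0.0910, 0.0712, 0.0582 and 0.0601). The log2 fold change was 1.16 to 1.37 over all libraries left out in turn, and Fst was called under 13 of 17 alternatives.

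From SOMB to SOMC, 0 of the 8 genes passed in edgeR and 0 in DESeq2. Of all genes, 0.486% rose and 0.341% fell by adjusted p. By unadjusted p from edgeR, 4 of the 8 were under 0.05, a cut that many genes met. Grem1, the last of the 4, ranked 1073 of 13790 genes by p. Those 4 were Bmper (0.66 ± 0.21), Nog (0.60 ± 0.20), Bmp3 (−0.56 ± 0.22) and Grem1 (−0.52 ± 0.21), with edgeR adjusted p from 0.199 to 0.359. Grem1 had 4.71, 10.2, 6.32 and 4.69 CPM in SOMC1 to SOMC4, and SOMC2 stood above the other 3. Without SOMC2 its difference was −0.82 and passed (edgeR adjusted p = 0.0431). Bmper had 7.43, 4.34, 4.11 and 7.03 CPM in SOMC, where the nearly alike libraries SOMC1 and SOMC4 were the high ones. Its log2 ratio of mean CPM was 1.09 in libraries of high no-feature share, SOMC1 and SOMC4 against SOMB1 alone. It was 0.17 among those of low share.

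From SOMC to SOMD, Nbl1 rose and the other 7 genes did not pass (edgeR). Of all genes, 1.26% rose and 1.07% fell. At this step 2 of 6 lateral plate and heart genes rose and 1 fell, and 1 of 5 intermediate mesoderm genes fell; their part in the result was not tested. Nbl1 had 4.91, 5.96, 4.89 and 4.54 CPM in SOMC1 to SOMC4 and 10.1, 8.55, 7.56 and 10.5 CPM in SOMD1 to SOMD4. All SOMD libraries were higher, by 0.89 ± 0.18 (edgeR adjusted p = 0.0140), and the difference was 1.13 and 0.57 in libraries of high and low no-feature share. The call was lost without SOMC1, SOMC4, SOMD1 or SOMD4 (edgeR adjusted p = 0.0537, 0.0636, 0.0612 and 0.0757), with values of 0.81 to 0.97 over all libraries left out in turn, and with the nearly alike libraries summed (edgeR adjusted p = 0.177).

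Same-numbered libraries deviated together at this step, and the paired fit called 4 genes. With the replicate number as a block, Nbl1 (0.92, edgeR adjusted p = 5.22e-04) and Grem1 (0.86, edgeR adjusted p = 0.00361) rose. Bmp3 (−0.55, edgeR adjusted p = 0.00802) and Nog (−0.58, edgeR adjusted p = 0.0230) fell in that fit. Over all genes this fit of SOMC and SOMD alone with the block gave 1075 higher and 1100 lower, against 185 and 166 for these groups alone with no block. Grem1 had 11.7, 11.9, 9.26 and 11.0 CPM in SOMD1 to SOMD4, and only SOMC2 lay within that range; unpaired, its difference was 0.80 ± 0.21 (edgeR adjusted p = 0.0692), and 1.095 without SOMC2 (edgeR adjusted p = 0.00412). Bmp3 had 5.83, 11.1, 11.0 and 5.44 CPM in SOMD, with the nearly alike libraries SOMD1 and SOMD4 lowest. With those libraries summed and the block kept, a setting chosen after seeing the data, Nbl1, Grem1 and Bmp3 passed and Nog did not.

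Between the ends of the series, Bmper and Nbl1 rose and Grem1 fell from SOMA to SOMD (edgeR). Of all genes, 10.8% rose and 8.92% fell between these ends. All 7 presomitic markers fell; of 7 somite genes 4 rose and 2 fell, of 6 neural tube genes 2 rose and 1 fell, and of 6 lateral plate and heart genes 2 rose. Of 5 intermediate mesoderm, 6 epithelial and 3 tested notochord genes 1 each fell, and the part of these markers in the result was not tested. Bmper had 5.77, 4.40, 3.47 and 5.09 CPM in SOMD1 to SOMD4, all above SOMA, an increase of 1.60 ± 0.25 (edgeR adjusted p = 2.37e-04). Nbl1 had 3.56, 4.90 and 3.54 CPM in SOMA, all below SOMD, an increase of 1.23 ± 0.20 (edgeR adjusted p = 2.85e-04). Both held under all 17 alternatives. Grem1 differed by −0.76 ± 0.22 (edgeR adjusted p = 0.0220), and the call was lost without SOMA1, SOMA4, SOMD3 or SOMD4 (edgeR adjusted p = 0.0599, 0.0739, 0.0540 and 0.0530). It was also lost in the 9 libraries of low no-feature share (−0.77, edgeR adjusted p = 0.144).

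The other 5 genes did not pass between the ends. Bmp3 differed by −0.05 ± 0.25 between SOMD and SOMA, with a 95% interval of −0.57 to 0.47. Its value was −0.73 in libraries of high no-feature share and 0.45 in those of low share. Fst had 21.01, 62.9, 48.5 and 23.8 CPM in SOMD, a spread of 3-fold within the group, and its difference was 0.67 ± 0.33 (edgeR adjusted p = 0.185). That difference was 0.09 in libraries of high no-feature share and 1.08 in those of low share. An edgeR fit of the 9 libraries of low share called it at 1.09 (adjusted p = 0.0154). Nog ran from 1.68 to 2.28 CPM in SOMA, and the SOMB range of 1.70 to 2.61 CPM lay below the SOMC range of 2.83 to 4.01, with SOMD spread from 1.66 to 3.20. Twsg1 stayed between 110 and 132 CPM in all SOM libraries. Chrd had 2.55 CPM in SOMA1 against 1.17 and 0.948 in the other SOMA libraries, and differed by 0.69 ± 0.33 between the ends (edgeR adjusted p = 0.173); without SOMA1 this was 1.32 and passed (edgeR adjusted p = 0.0141). Chrd overlaps Thpo on the opposite strand and the library kit does not mark strand, so reads from the shared stretch cannot be told apart. Fst likewise overlaps the antisense gene Gm47040, which is not among the genes of the tables.

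Around these genes, ligands and co-receptors moved along the series. Of 6 tested ligands, Bmp5 and Gdf6 rose from SOMA to SOMB (1.17 ± 0.16 and 2.35 ± 0.57), Bmp5 again to SOMC (0.64 ± 0.14) and Bmp7 from SOMC to SOMD (0.65 ± 0.15), all under an edgeR adjusted p of 0.05. Between the ends Bmp5, Bmp7 and Gdf6 rose and Bmp4 fell. Of 9 receptors and co-receptors, the co-receptor Rgmb rose to SOMB (0.80 ± 0.08) and the type I receptor Bmpr1b to SOMD (1.25 ± 0.14). Of 6 BMP targets, Id2 and Id3 rose from SOMA to SOMB (0.53 ± 0.11 and 0.40 ± 0.12). Of 5 inhibitors inside the cell or at its membrane, Bambi fell at that step (−0.66 ± 0.11). Of 10 tested other secreted antagonists, Cer1 fell from SOMA to SOMB and again to SOMC, and of 3 chordin proteases Tll2 fell to SOMB (−4.24 ± 0.51). Cer1 had 35.3 to 39.0 CPM in SOMA, while SOMB2 with 0.214 CPM stood apart from the other SOMB libraries at 7.66 to 7.74. Of 4 Hedgehog targets, Hhip rose to SOMB (1.78 ± 0.19). No Smad of the BMP branch passed at any step.

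MUT and WT compare trunk tissue by genotype label. Here 0 of the 8 genes passed in edgeR and 0 in DESeq2, with 2 at an unadjusted p under 0.05. These 2, Twsg1 and Bmp3, ranked 1356 and 2045 of 14485 genes by p from edgeR. Of all 14485 genes tested, 0.331% were higher and 0.00690% lower. Bmp3 had 10.6 to 12.3 CPM in MUT and 7.25 to 10.3 in WT, a difference of 0.39 ± 0.17 (edgeR adjusted p = 0.305). Twsg1 had 190, 191 and 190 CPM in MUT and 203, 206 and 222 in WT, a difference of −0.15 ± 0.05 (edgeR adjusted p = 0.218).

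The other 6 genes did not pass either. Grem1 ran from 6.71 to 8.96 CPM in MUT and 7.69 to 8.94 in WT, a difference of −0.11 with a 95% interval of −0.49 to 0.27. Fst differed by 0.10 (−0.25 to 0.46) and Nog by 0.30 (−0.27 to 0.88). The intervals were wider for the rarer genes: −1.36 to 0.63 for Chrd, −0.49 to 1.23 for Nbl1 and −0.95 to 0.45 for Bmper. None of the other pathway genes tested passed in any of the 9 lists. Nearest to the threshold were Id3 (0.58 ± 0.10), Id1 (0.60 ± 0.12) and Bmp7 (0.65 ± 0.14), all higher in MUT. Their edgeR adjusted p was 0.0537, 0.0636 and 0.0678. Of the same family as Id1 and Id3, Id2 and Id4 were lower in MUT (−0.21 ± 0.08 and −0.44 ± 0.23, edgeR adjusted p = 0.212 and 0.419). Xist stood at 1812 and 1811 CPM in MUT2 and MUT3 and at 2.13 to 10.7 in MUT1 and WT, so the sexes are unevenly spread over these groups; its part in the values was not tested beyond a term for Xist, under which 0 of the 8 genes were called.

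Across all 8 groups, the genes spanned different ranges and put different groups on top. Grem1 had the widest range of group means, 33.8-fold from CTRL to DIR, then Bmp3 (10.7-fold, DIR to CTRL), Nog (7.21-fold, MUT to DIR) and Nbl1 (7.07-fold, DIR to WT). Bmper (3.99-fold), Chrd (3.48-fold), Fst (3.07-fold) and Twsg1 (2.10-fold) spanned less. For Grem1 the order was CTRL and SOMA, then without overlap SOMD, SOMB, WT, MUT and SOMC, and then without overlap DIR. For Nbl1 it was DIR, SOMD, SOMC, SOMB, SOMA, CTRL, MUT and WT by mean, with DIR and SOMD each clear of all groups below. Among the rest, SOMB1 (2.90 CPM) lay below MUT3 (3.51). For Bmp3, DIR stood above and CTRL below all other groups without overlap. Between them SOMB, SOMC, MUT, WT, SOMA and SOMD followed by mean, with overlap beyond neighbours. SOMC1 had 9.47 CPM against 10.3 in WT2, and MUT1 10.6 against 11.1 in SOMD2. Bmper was high by mean in SOMC, WT, SOMD, MUT and SOMB, and lower in CTRL. MUT2 (2.64 CPM) and WT2 (3.26) lay within the CTRL range. SOMA and DIR were lowest, without overlap with the others. Twsg1 was highest in WT, then MUT, with the other 6 groups below and overlapping. For Nog, Chrd and Fst every neighbour in the order overlapped. Trunk libraries were unsorted, with erythroid genes summing to 958 to 2710 CPM against at most 84.8 elsewhere, and levels across experiments were not tested.

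Per kb of exon, levels can be set side by side between genes. Twsg1 had the highest mean in every group, 19.4 to 40.8 CPM per kb, and made 51.5 to 64.5% of the sum of the 8 genes. Fst came next in every group but DIR, with 5.37 to 16.5 CPM per kb, and Chrd had 0.151 CPM per kb in MUT, its lowest group. In DIR the share of Grem1 was 0.342% against 12.5% in CTRL, while Nbl1 made 17.1% against 3.65% and Bmp3 10.6% against 1.07%. The sum itself was 37.7 CPM per kb in CTRL and 40.7 in DIR.

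**Figure D4:**
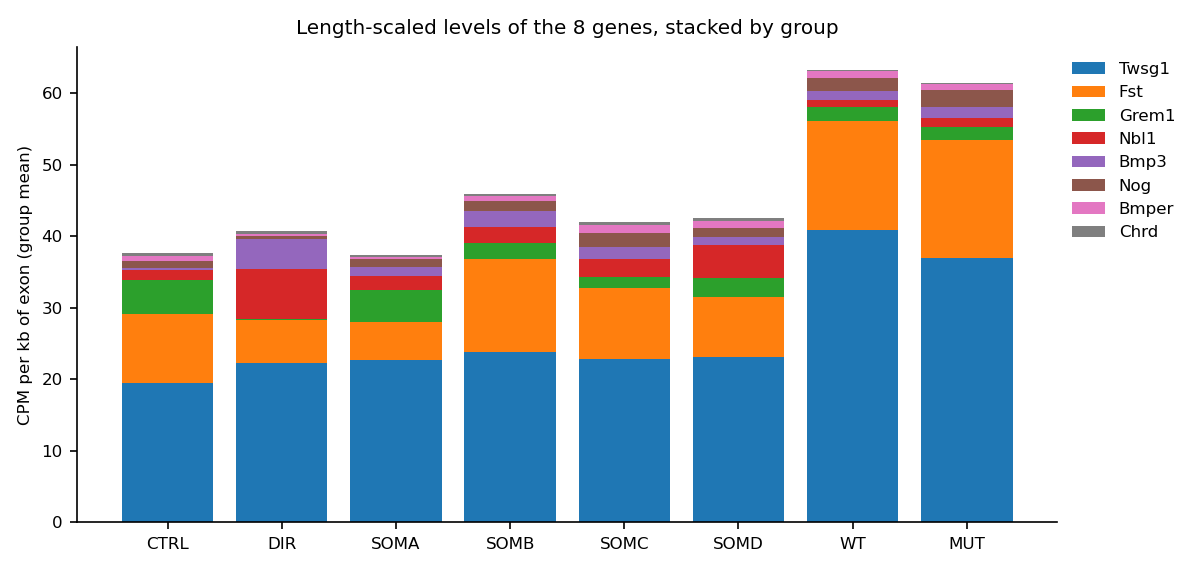
Group means of the 8 genes in CPM per kb of exon, stacked by group from 0. Twsg1 makes over 50% of each bar; Grem1 is visible in CTRL and SOMA and absent to the eye in DIR, where Nbl1 and Bmp3 are wide.

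Likeness of pattern was measured by Pearson r of log2 CPM, which shares library depth and group structure among its points and is given as a description. Over the 29 libraries, the 2 genes most like Grem1 were Id2 (r = 0.82) and Smad9 (0.79), and those most like Nog were Id3 (0.94) and Ttll12 (0.93). Bmp7 (0.86) and Mterfd2 (0.80) were most like Nbl1, and Ror1 (0.91) and Ebf3 (0.90) most like Bmper. Csnk1a1 (0.99) and Tmem167 (0.98) were most like Twsg1, Plch1 (0.85) and Stard7 (0.80) most like Fst, and Tpra1 (0.89) and Sharpin (0.84) most like Chrd. Within the 15 SOM libraries the nearest genes were Plxdc2 (0.93) for Nbl1, Sepp1 (0.92) for Bmp3 and Fzd1 (0.98) for Bmper. Among the 8 genes themselves, Bmp3 and Fst were most alike in the SOM libraries (r = 0.84) but not over all 29 (r near 0, −0.003), and Grem1 and Bmper ran opposite in the SOM libraries (r = −0.81).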

How the data were processed

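Libraries were made from Trizol RNA with a TruSeq v2 kit, which does not mark strand, and 11 rounds of PCR, per the labels. The deposited values are raw counts of reads per gene as the authors counted them. The submitters' processing notes name the mm10 genome, HTSeq 0.6, TopHat2 2.0.9, Cufflinks and DESeq2 1.10. The annotation and the strand setting are not stated in the labels. Each count table holds 23337 genes and 5 summary lines, which were kept out of the gene totals: reads in no feature were 6.54 to 12.8% and multi-mapped reads 15.9 to 40.6% of the total.

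Groups came from the titles and labels. The filterByExpr function (minimum count 10, minimum total 15) removed low genes, TMM set the scaling, and genes were tested 2-sided with the quasi-likelihood test of edgeR 4.0.16 under R 4.3.3, in separate fits for DIR with CTRL, the SOM groups, and MUT with WT. P-values were adjusted over all genes tested. Levels used 1 TMM scaling over all 29 libraries, and lengths came from GENCODE M21 on mm10, which matched 20953 symbols. The test was checked on simulated data.

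The 8 genes and the lists were chosen with earlier results of these data known. Named genes were the 8, up to 3 per pathway list and direction past the threshold by lowest p, the readouts of LDN and SAG, and the 2 genes most alike by r among genes whose mean reached 5 CPM. Some of the genes this rule names are not reported here. Alternatives were RLE size factors, no scaling, no filter, DESeq2 1.42.0, all libraries in 1 fit, each library left out, the replicate number as a block, read shares or Xist as a term, library subsets, and nearly alike libraries summed; the last of these with the block was chosen after seeing the data. Same-numbered libraries deviated together, by r of their deviations from the group means, in SOMB with SOMA (0.385 to 0.443, 3 pairs) and SOMD with SOMC (0.392 to 0.497, 4 pairs), and not throughout in the other 4 comparisons; the labels do not state a pairing.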

Additional observations from a re-analysis of the deposited data

How the results depend on the processing

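No called value of the 8 genes changed sign under any alternative run, and in the 6 comparisons the replicate block changed calls of theirs only in SOMD against SOMC; over the whole course it added Nog and Fst (edgeR adjusted p = 0.0452 and 0.0252). Counts of the 8 genes called moved as follows. In DIR against CTRL 5 passed with DESeq2, with all libraries in 1 fit and with the multi-mapped share as a term, against 3. Leaving out a library gave 2 to 4 in SOMB against SOMA, 0 to 1 in SOMC against SOMB and 0 to 2 in SOMD against SOMC. In SOMD against SOMC, 2 passed with DESeq2, 4 with the replicate block, 0 with only the 9 libraries of low no-feature share, 0 with nearly alike libraries summed, and 3 with these summed and the block, against 1.

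Sign changes were of values that passed in neither setting. Chrd became 0.0743 in DIR against CTRL with the share as a term, and in SOMB against SOMA 0.10 with the no-feature share as a term, 0.24 with the 9 libraries, and −0.49 to 0.38 without a library. Fst in SOMD against SOMC ran from −0.559 to 0.0279 without a library. In SOMD against SOMA Bmp3 became 0.46 with the 9 libraries, 0.0894 with alike libraries summed and −0.22 to 0.13 without a library, and Nog became −0.0545 with the replicate block and −0.0429 to 0.275 without a library. In MUT against WT, with Xist as a term, Fst became −0.0644 and Nbl1 −0.18, and Fst ran from −0.0503 to 0.217 without a library. The cause was not tested. Counts over all genes, higher and lower, moved more. DIR against CTRL gave 43 and 63, but 207 and 290 with DESeq2, 801 and 681 in 1 fit of all libraries, 61 and 195 with the replicate block, and 16 to 47 and 24 to 61 without a library. SOMC against SOMB gave 67 and 47, but 158 and 127 with DESeq2, 1 and 4 with the 9 libraries and 11 and 4 with alike libraries summed. SOMB against SOMA gave 569 and 627, but 1251 and 1162 with the block and 337 and 460 for the 2 groups alone. SOMD against SOMC gave 174 and 148, but 1075 and 1100 with the block, 1 and 2 with the 9 libraries, 20 and 31 with alike libraries summed, and 697 and 668 with these summed and the block. MUT against WT gave 48 and 1, but 482 and 228 with DESeq2, 175 and 22 without the filter, 272 and 56 with the replicate block, 1 and 0 with Xist as a term and 0 to 69 and 0 to 19 without a library. Of 64 group means, 62 moved by less than 1 SD without scaling; Twsg1 moved to 203 CPM in MUT and 225 in WT. Depth limits the rarest values most: Grem1 in DIR rests on 76 counts and Nog in DIR on 61.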
